A study of Caenorhabditis elegans with 12 samples.

Results

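The effect of *eat-2* in animals without normal *nhr-62* was measured by setting *eat-2;nhr-62* double mutants against *nhr-62* single mutants, and it rests on 6 of the 12 libraries of the study, 3 per genotype, picked by the strain given in the sample labels. The double mutant carries *eat-2(ad465)*, a point mutation, together with *nhr-62(tm1818)*. The single mutant carries *nhr-62(tm1818)* alone, so that allele is shared by both genotypes and only *eat-2* differs between them. The allele *tm1818* is a partial deletion that takes out the sequence for the DNA-binding domain and is held to be a strong reduction of function, though a second gene product lacking that domain could still be made. The other 6 libraries were *eat-2(ad465)* and wild-type (N2) animals, and they give the effect of *eat-2* when *nhr-62* is intact. Each library was made from RNA of a pool of hand-picked animals on day 0 of adulthood without eggs, grown at 20°C on OP50 bacteria, and the 3 libraries of a genotype are described as biological replicates.

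*eat-2* encodes a nicotinic acetylcholine receptor subunit that acts in pharyngeal muscle. Mutants pump slowly, take in less food and are a standard genetic model of dietary restriction in *C. elegans*. *nhr-62* encodes a nuclear hormone receptor related to mammalian HNF4, a family of transcription factors that link lipid state to gene expression. The comparison addresses which transcript changes accompany *eat-2* when *nhr-62* is mutant in both groups.

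The deposited values are counts of reads per gene. Totals ran from 18260311 to 31180808 reads in *eat-2;nhr-62* and from 30593981 to 44753083 in *nhr-62* libraries, ranges that overlap by 1 library of each genotype. The spread between libraries of 1 genotype was 9.72 to 59.2 times that of pure read sampling, over 12 pairs. The targeted genes are a weak check of the labels, since neither allele removes the whole gene. *eat-2* had normalised read counts of 4.69, 0 and 4.81 in *eat-2;nhr-62* libraries, against 8.38, 16.7 and 8.55 in *nhr-62* libraries, without overlap but at very few reads (adjusted p = 0.0991). *nhr-62* had 90.7, 92.0 and 124 against 129, 142 and 131, and did not pass the test (adjusted p = 0.157).

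Transcripts were mostly higher in *eat-2;nhr-62* than in *nhr-62* animals. Of 15344 genes tested, 1668 (10.9%) were called, meaning a Benjamini-Hochberg adjusted p under 0.05 in edgeR's quasi-likelihood test, a fold-change over 1.5 and a mean normalised count over 10. Among them 1452 (9.46% of the genes tested) were higher in the double mutant and 216 (1.41%) were lower. The median log2 fold-change over all genes was 0.03, and 706 of the higher and 117 of the lower genes lay between 1.5-fold and 2-fold. Changes beyond 4-fold were found for 142 higher and 29 lower genes. Where the fold-change was not required, 2977 genes had an adjusted p under 0.05, of which 1927 were higher and 1050 lower. The count depended on single libraries: it was 893 and 1076 when replicate 1 or replicate 3 of the double mutant was left out, and 941, 983 and 996 without *nhr-62* replicates 1, 2 and 3.

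The largest increases with high counts included 2 lipases, 3 collagens and a lysozyme. *lipl-3*, a lysosomal lipase known to be induced by fasting, had normalised read counts of 183, 280 and 382 in *eat-2;nhr-62* libraries, against 19.5, 31.4 and 20.2 in *nhr-62* libraries (log2 fold-change 3.59 ± 0.43, SE, n = 3 each, edgeR adjusted p = 0.000411). *C40H1.8*, a predicted class 3 lipase, had 241, 310 and 266 against 30.7, 26.5 and 24.1 (3.32 ± 0.19, adjusted p = 6.36e-06), the smallest p-value of all genes tested. Both genes were thus at least about 10-fold higher on average, with no overlap between the genotypes. The collagens *col-161*, *col-77* and *col-146*, structural proteins of the cuticle, had log2 fold-changes of 4.16, 4.03 and 3.61, and their levels varied several-fold among the double mutants. *col-146*, for example, had 477, 95.6 and 80.8 in *eat-2;nhr-62* libraries, against 29.3, 15.7 and 5.44 in *nhr-62* libraries. *lys-10*, which encodes a lysozyme, had 372, 419 and 1159 against 60.7, 106 and 159 (2.59 ± 0.45, adjusted p = 0.0033). *srr-6*, a serpentine receptor gene, rose by 2.76, and the other 5 genes of this group were *ZK218.5*, *Y47D7A.13*, *T26H5.9*, *Y8A9A.2* and *F49F1.5*, with log2 fold-changes of 5.48, 4.88, 3.13, 2.79 and 2.67.

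**Figure D1:**
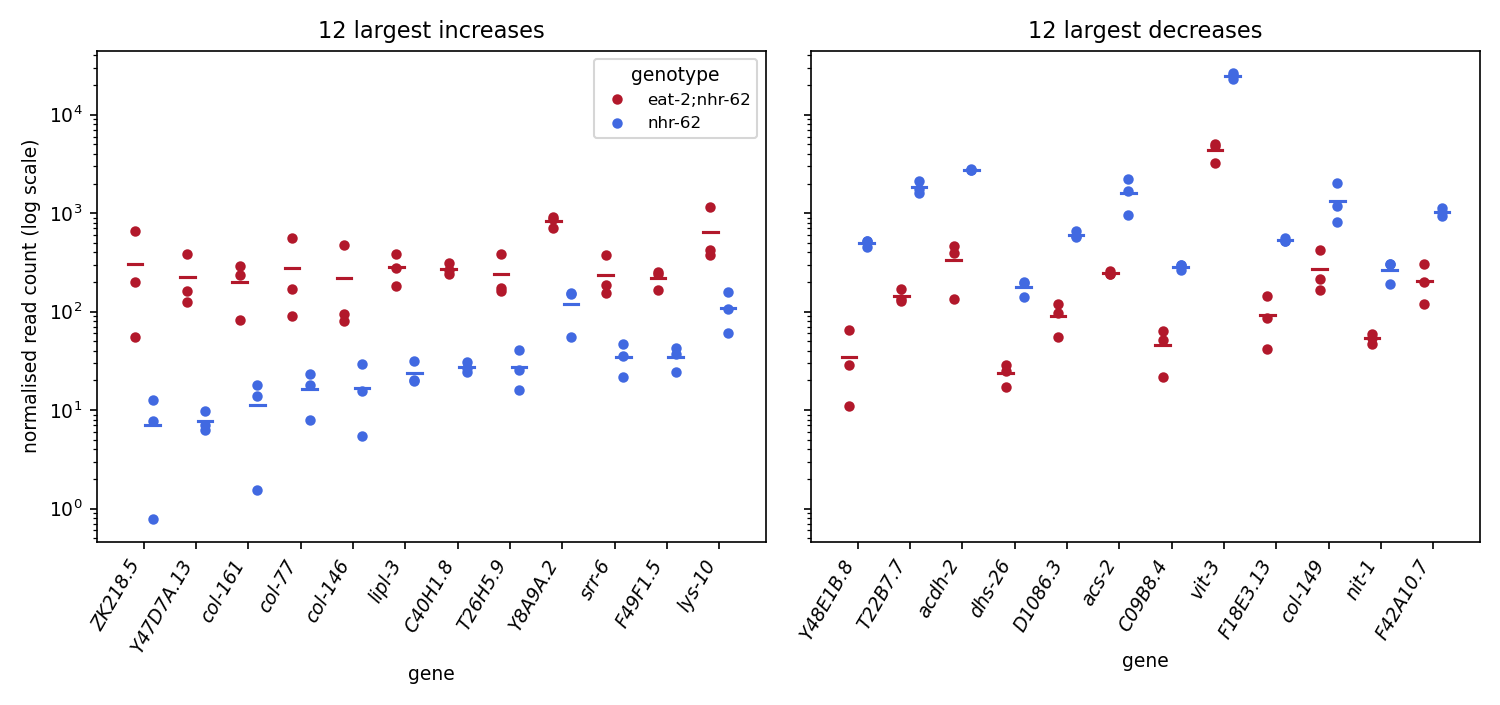
Normalised read counts (y axis, log scale) in each library of the 12 largest increases and 12 largest decreases (x axis) among called genes with a mean count over 100 and no overlap between libraries, with *eat-2;nhr-62* left of *nhr-62* and a bar at the mean of 3 libraries. *C40H1.8* lies between 241 and 310 in *eat-2;nhr-62* libraries and between 24.1 and 30.7 in *nhr-62* libraries, a narrower spread than the collagens show.

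The 12 largest decreases with high counts included 2 genes of fat oxidation, a yolk gene, 2 other enzymes, a collagen and 6 genes known by sequence name. *acdh-2*, a predicted mitochondrial acyl-CoA dehydrogenase, had normalised read counts of 134, 391 and 469 in *eat-2;nhr-62* libraries, against 2745, 2738 and 2783 in *nhr-62* libraries (log2 fold-change -3.02 ± 0.31, SE, n = 3 each, edgeR adjusted p = 0.000198). *acs-2*, the acyl-CoA synthetase that feeds fatty acids into mitochondrial oxidation and is known as a fasting-induced target of NHR-49, had 239, 244 and 258 against 969, 1672 and 2220 (-2.71 ± 0.28, adjusted p = 0.000198). In both genes every double mutant library lay below every *nhr-62* library, with the *acs-2* spread on the *nhr-62* side. *dhs-26*, a short-chain dehydrogenase, fell by 2.91, and *nit-1*, a nitrilase, fell by 2.299, but each shares exon sequence with another expressed gene and its reads cannot be told apart from that neighbour. *T22B7.7* had 134, 169 and 128 in *eat-2;nhr-62* libraries, against 2106, 1744 and 1618 in *nhr-62* libraries (-3.65 ± 0.36, adjusted p = 0.000115). The other members of this group were *Y48E1B.8*, *D1086.3*, *C09B8.4*, *vit-3*, *F18E3.13*, *col-149* and *F42A10.7*, with log2 fold-changes between -3.77 and -2.298, and *Y48E1B.8* overlaps the lectin gene *clec-145*.

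Yolk transcripts were lower to very different degrees. Vitellogenins are lipoproteins made in the intestine and loaded into oocytes. Of the 6 genes, 4 were called lower (66.7%, against 1.41% of all genes) and none higher. The list's median log2 fold-change was -1.63 against 0.03 for all genes. *vit-1* had normalised read counts of 32379, 36221 and 31383 in *eat-2;nhr-62* libraries, against 175535, 166823 and 144763 in *nhr-62* libraries (-2.28 ± 0.21, SE, n = 3 each, edgeR adjusted p = 9.94e-05). *vit-5* had 43490, 62296 and 61888 against 179765, 180657 and 175766 (-1.68 ± 0.15, adjusted p = 7.55e-05). *vit-3* and *vit-4* had log2 fold-changes of -2.52 and -1.59, so that these 4 genes were 3-fold to 6-fold lower with no overlap of libraries. *vit-2*, by contrast, had 397319, 462546 and 488989 in *eat-2;nhr-62* libraries, against 536693, 496021 and 474413 in *nhr-62* libraries, which overlapped (-0.16 ± 0.11, adjusted p = 0.326). *vit-6* had 634929, 809045 and 857782 against 1112070, 1026310 and 971636 (-0.43 ± 0.14, adjusted p = 0.0477), without overlap but short of 1.5-fold. In *eat-2* against N2 all 6 genes were called lower, against 3.61% of all genes, with a median of -2.82. The smaller change of *vit-2* and *vit-6* in the *nhr-62* background did not pass the test of the difference between backgrounds (interaction adjusted p = 0.0804 and 0.0848). Together the 6 genes took 3.91 to 5.22% of all reads in *eat-2;nhr-62* and 6.13 to 6.57% in *nhr-62*.

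Other genes of lipid metabolism changed in both directions. Of 32 genes of mitochondrial fatty acid oxidation, 2 were called higher (6.25%, against 9.46% of all genes) and 4 lower (12.5%, against 1.41%), with a median log2 fold-change of -0.02. Of 14 genes of peroxisomal oxidation, none was called higher and 2 were called lower (14.3%). Yet 11 of the 14 had a positive log2 fold-change and 3 a negative one, with a median of 0.30. Both genes called lower were acyl-CoA oxidases of ascaroside synthesis. *acox-1.2* had normalised read counts of 239, 303 and 393 in *eat-2;nhr-62* libraries, against 905, 988 and 626 in *nhr-62* libraries (log2 fold-change -1.42 ± 0.23, edgeR adjusted p = 0.00257). *acox-1.3* had -0.89 ± 0.16. Of 16 fatty acid desaturases and elongases, 2 were called higher (12.5%) and 1 lower (6.25%). The lower one was *fat-7*, the stearoyl-CoA desaturase that makes oleic acid, with 1745, 2315 and 3031 against 7293, 6349 and 11205 (-1.81 ± 0.33, adjusted p = 0.00473). The higher ones were the elongases *elo-7* and *elo-8*, with log2 fold-changes of 1.27 and 0.97. *elo-7* overlaps another expressed gene, and *elo-8* lost its call without 1 of the 12 libraries. *pck-1*, the gluconeogenic phosphoenolpyruvate carboxykinase, fell by 0.71, and its paralogue *pck-3* was higher (1.05 ± 0.30, adjusted p = 0.0301), a call lost without any one of 5 libraries. *gsy-1*, glycogen synthase, had -0.31 ± 0.06 and was short of 1.5-fold.

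Lipases were the lipid genes that most often rose. Of 23 tested, 8 were called higher (34.8%, against 9.46% of all genes) and 1 lower, with a median log2 fold-change of 0.69, and the count of higher genes was 5 without *nhr-62* replicate 1. The single decrease was *lips-14*, which had normalised read counts of 3.13, 2.76 and 1.92 in *eat-2;nhr-62* libraries, against 55.1, 65.8 and 37.3 in *nhr-62* libraries (-4.31 ± 0.38, SE, n = 3 each, edgeR adjusted p = 7.55e-05). The paralogues of *C40H1.8* next to it on chromosome III moved less: *C40H1.7* had 263, 375 and 383 against 140, 217 and 213, without overlap but not past the test (adjusted p = 0.205), and *C40H1.9* had 10.9, 15.6 and 13.5 against 4.89, 7.86 and 6.22 (adjusted p = 0.124). In *eat-2* against N2, 11 of the 23 lipases were called higher and 2 lower, with a median of 0.89. Over all genes 23.9% were called higher there and 3.61% lower.

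C-type lectins, a large family of secreted carbohydrate-binding proteins many of which are induced by infection, rose more often than most lists. Of 122 tested, 41 were called higher (33.6%, against 9.46% of all genes) and 1 lower (0.82%, against 1.41%). The median log2 fold-change was 0.67, and 24 were higher without *nhr-62* replicate 3. *clec-7* had normalised read counts of 1090, 986 and 1038 in *eat-2;nhr-62* libraries, against 304, 421 and 269 in *nhr-62* libraries (1.65 ± 0.19, SE, n = 3 each, edgeR adjusted p = 0.000288). *clec-72* had 105, 161 and 190 against 27.2, 35.4 and 25.7 (2.38 ± 0.28, adjusted p = 0.000355), and *clec-17*, at lower counts, had 144, 89.2 and 78.9 against 5.58, 4.91 and 2.33. All 3 separated the genotypes without overlap. Some lectins varied more among the double mutants. *clec-169* had 105, 725 and 703 in *eat-2;nhr-62* libraries, against 83.8, 109 and 55.2 in *nhr-62* libraries, so that replicate 1 of the double mutant lay within the *nhr-62* range. Among lysozymes and other antimicrobial peptide genes, the saposin-like *spp-8* and *fip-2* rose (1.09 ± 0.18 and 0.94 ± 0.12), while *spp-17* fell by 1.3004. These families gave 17 higher (27%) and 2 lower (3.17%) of 63 genes. Their count of higher genes was 11 without *nhr-62* replicate 1, and also 11 without *nhr-62* replicate 3. In *eat-2* against N2, where 23.9% of all genes were called higher and 3.61% lower, the lectins gave 34 higher and 7 lower of 122. Their median there was 0.33, and no lectin passed the test of the difference between backgrounds.

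Neuropeptide genes were called higher in part and never lower, mostly by small amounts. All 30 tested FMRFamide-like peptide genes (*flp*) had a positive log2 fold-change (29 with DESeq2 size factors), with a median of 0.56. Of these, 9 were called higher (30%, against 9.46% of all genes) and none lower. *flp-5* had normalised read counts of 303, 257 and 261 in *eat-2;nhr-62* libraries, against 147, 142 and 166 in *nhr-62* libraries (0.84 ± 0.11, SE, n = 3 each, edgeR adjusted p = 0.000836). *flp-14* and *flp-24* also separated the genotypes, at 0.57 ± 0.07 and 0.58 ± 0.09, and fell just short of 1.5-fold. Among 68 neuropeptide-like protein genes 15 were higher (22.1%) and none lower. Of these, *nlp-51* had the smallest p-value, with 199, 189 and 174 against 60.7, 78.6 and 77.8 (1.37 ± 0.15, adjusted p = 0.000288). The 15 became 7 when *eat-2;nhr-62* replicate 3 was left out, 8 without *nhr-62* replicate 1 and 9 without *nhr-62* replicate 3. Of 11 genes that process neuropeptides, 6 were higher (54.5%). They included *egl-3*, the proprotein convertase that cuts the precursors, *egl-21*, the carboxypeptidase that trims them, *sbt-1*, the chaperone of the convertase, and *pghm-1*, an amidating enzyme, with log2 fold-changes of 0.67, 0.61, 0.62 and 0.70. The calls of *egl-3*, *egl-21* and *sbt-1* were each lost without *nhr-62* replicate 1, and that of *egl-21* also with DESeq2. Of 24 insulin-like peptide genes 5 were higher (20.8%). Among them was *ins-7*, with 136, 124 and 146.2 in *eat-2;nhr-62* libraries, against 41.9, 85.5 and 73.9 in *nhr-62* libraries (1.02 ± 0.24). Of 27 general neuronal markers 1 was called, *egl-3*, but 20 were positive with a median of 0.25. Their mean level on the log2 scale, relative to the average of 12 libraries, was 0.04 to 0.12 in *eat-2;nhr-62* and -0.16 to -0.09 in *nhr-62* libraries, which did not overlap. The part of the neuronal markers in the neuropeptide values was not tested. In *eat-2* against N2, 25 of the 30 *flp* genes and 41 of the 68 neuropeptide-like genes were called higher, against 23.9% of all genes.

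Pharyngeal genes had the highest share of increases of all lists. Of 15 tested markers of the pharynx, the tissue in which EAT-2 acts, 10 were called higher and none lower. That is 66.7% higher, against 9.46% of all genes, with a median log2 fold-change of 0.77. *phat-6*, a secreted product of the pharyngeal gland, had normalised read counts of 299, 326 and 381 in *eat-2;nhr-62* libraries, against 140, 140 and 141 in *nhr-62* libraries (1.26 ± 0.12, SE, n = 3 each, edgeR adjusted p = 0.000105). *tnc-2*, a troponin C of pharyngeal muscle, had 972, 957 and 882 against 473, 596 and 502 (0.84 ± 0.13, adjusted p = 0.00163). Neither gene overlapped between genotypes, and the summed count of the markers was 43180 to 50364 in *eat-2;nhr-62* and 31128 to 34835 in *nhr-62*. In RNA of whole animals a higher level per cell and a larger share of a tissue in the total RNA cannot be told apart. Markers of the intestine gave 3 higher (18.8%) and 1 lower (6.25%, against 1.41% of all genes) of 16. They were led by the intermediate filament genes *ifb-2* (1.19 ± 0.11) and *ifc-2* (0.82 ± 0.12). Body wall muscle, with 18 markers, and hypodermis, with 12, gave no calls. The glutamine- and asparagine-rich *abu* and *pqn* genes gave 17 higher (29.3%) and 1 lower (1.72%) of 58. *abu-11* had 82.9, 95.6 and 65.4 against 5.58, 4.91 and 5.44 (3.90 ± 0.29, adjusted p = 3.77e-05).

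**Figure D2:**
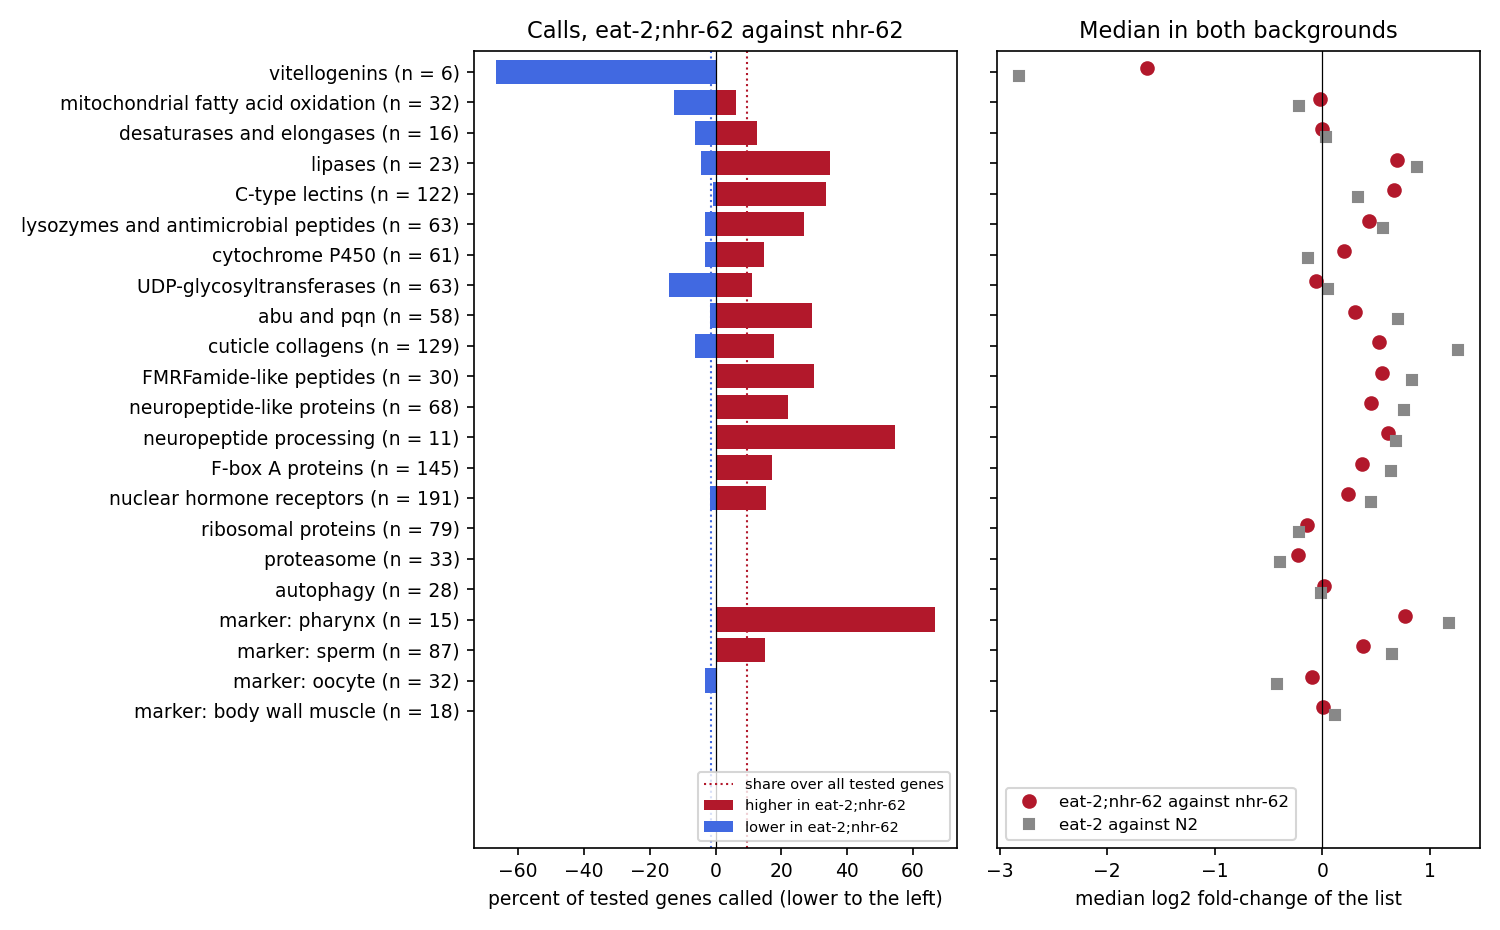
Percent of the tested genes of 22 lists called higher (right) or lower (left) in *eat-2;nhr-62* against *nhr-62*, with dotted lines at the shares over all genes, and the median log2 fold-change of each list for *eat-2;nhr-62* against *nhr-62* (circles) and *eat-2* against N2 (squares). Pharynx markers reach 66.7% higher and vitellogenins 66.7% lower, while ribosomal, proteasome and autophagy genes have no calls.

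Of 129 collagen genes 23 were called higher (17.8%, against 9.46% of all genes) and 8 lower (6.2%, against 1.41%). Their median log2 fold-change was 0.52. The mean collagen level on the log2 scale, relative to the average of 12 libraries, was 0.27, 0.68 and -0.60 in *eat-2;nhr-62* libraries, against -0.53, -0.76 and -0.67 in *nhr-62* libraries, so replicate 3 of the double mutant lay among the *nhr-62* libraries. The 23 became 13 when replicate 1 of the double mutant was left out, 11 and 10 without *nhr-62* replicates 2 and 3, and 41 without *eat-2* replicate 1. A collagen that was lower in every double mutant library was *col-101*, with normalised read counts of 11852, 12824 and 12222 in *eat-2;nhr-62* libraries, against 38493, 29964 and 27178 in *nhr-62* libraries (-1.37 ± 0.20, SE, n = 3 each, edgeR adjusted p = 0.0014).

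Sperm markers, which in hermaphrodites are expressed before the switch to oocytes, gave 13 higher and none lower of 87. The higher share was 14.9%, against 9.46% of all genes, and the median of these markers was 0.38. Their mean level was 0.23, -0.12 and -0.08 in *eat-2;nhr-62* libraries, against -0.39, -0.44 and -0.44 in *nhr-62* libraries, and their summed count was 36247 to 48638 against 28942 to 36092, with 3 and 4 of the 97 listed genes without a read in those genotypes. The 13 became 2 when replicate 1 or 3 of the double mutant or *nhr-62* replicate 1 was left out, 3 and 4 without *nhr-62* replicates 2 and 3, and 23 without N2 replicate 2. Of 32 oocyte markers 30 had a negative log2 fold-change with a median of -0.09 (16 when scaled by total counts), and 1, the caveolin *cav-1*, was called lower (-1.25 ± 0.30, adjusted p = 0.0164), whereas 27 markers of the mitotic and meiotic germ line gave no call. With the sperm marker level as a covariate in the fit, 899 genes were called in place of 1668, 807 of them shared, and 79.2% of those called were higher. The higher calls were then 27 lectins, 4 lipases, 5 collagens, 9 neuropeptide-like genes and 11 lysozyme or antimicrobial genes. The calls of *col-77* and *col-146* were lost in that fit. That covariate was computed from the same counts, and its level did not overlap between the genotypes. The drop in calls therefore cannot tell the timing of the germ line from *eat-2* itself. Which share of the changes goes with that timing was not tested.

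**Figure D3:**
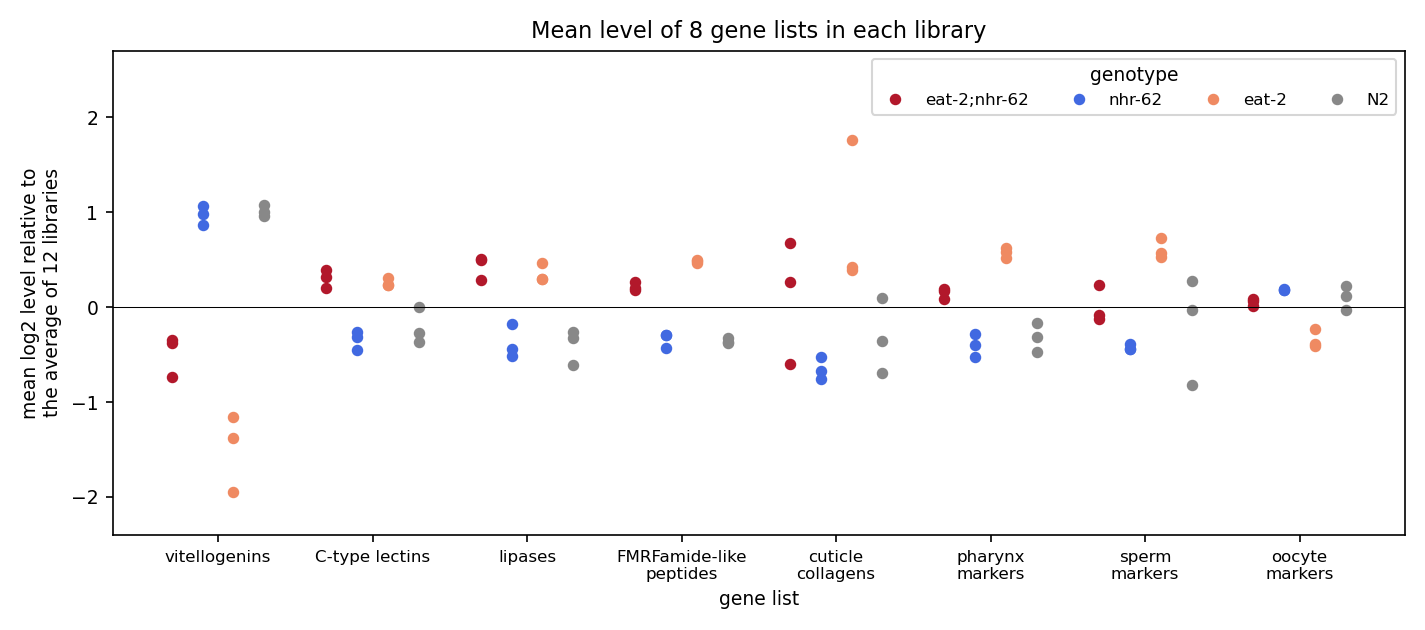
Mean log2 level of 8 gene lists (x axis) in each library, relative to the average of 12 libraries (y axis), with *eat-2;nhr-62*, *nhr-62*, *eat-2* and N2 from left to right within a list. The 3 *eat-2;nhr-62* libraries lie above the 3 *nhr-62* libraries for lectins, lipases, FMRFamide-like peptides, pharynx markers and sperm markers. They lie below them for vitellogenins and oocyte markers, while collagens overlap.

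Detoxification enzymes and regulators showed mixed changes. Of 61 cytochrome P450 genes 9 were higher (14.8%, against 9.46% of all genes) and 2 lower (3.28%, against 1.41%). *cyp-13A5* had normalised read counts of 600, 1418 and 1091 in *eat-2;nhr-62* libraries, against 97.0, 250 and 223 in *nhr-62* libraries (log2 fold-change 2.46 ± 0.45, edgeR adjusted p = 0.00433). UDP-glycosyltransferases, which conjugate sugars to small molecules, gave 7 higher (11.1%, against 9.46% of all genes) and 9 lower (14.3%, against 1.41%) of 63. *ugt-41* had 241, 242 and 293 against 597, 694 and 708 (-1.36 ± 0.12, adjusted p = 7.55e-05), and *ugt-54* moved the other way, with 477, 356 and 407 against 149, 173 and 180 (1.301 ± 0.22). The lower count was 5 without *eat-2;nhr-62* replicate 1 and 4 without *nhr-62* replicate 2, and the higher count was 4 without *nhr-62* replicate 1. The glutathione S-transferase *gst-10* had 130, 135 and 166 in *eat-2;nhr-62* libraries, against 662, 604 and 507 in *nhr-62* libraries (-2.03 ± 0.18), and the metallothionein *mtl-2* had 50.02, 45.1 and 73.1 against 182, 268 and 184 (-1.90 ± 0.23). Both fell about 4-fold with no overlap. Of 191 nuclear hormone receptors 29 were higher (15.2%) and 3 lower (1.57%, near the 1.41% of all genes). Among them *nhr-99* had 1.72 ± 0.24, and *nhr-47*, which overlaps another expressed gene, had -1.18 ± 0.13. The 29 became 19, 17 and 18 without *eat-2;nhr-62* replicate 1, *nhr-62* replicate 1 and *nhr-62* replicate 3.

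Growth and protein turnover genes gave few calls. Among 79 ribosomal protein genes, 33 proteasome subunits, 36 respiratory chain genes and 28 autophagy genes no gene was called. Proteasome subunits were negative in 32 of 33 cases (31 when scaled by total counts), with a median log2 fold-change of -0.23, and *rpn-9* had normalised read counts of 5743, 6075 and 5930 in *eat-2;nhr-62* libraries, against 7680, 7460 and 7329 in *nhr-62* libraries (-0.34 ± 0.06, edgeR adjusted p = 0.00315). That is a separation without overlap at a fold-change under 1.5. *hlh-30*, the TFEB homologue that controls lysosome and autophagy genes, had 1865, 1700 and 1665 against 1256, 1265 and 1052 (0.55 ± 0.10, adjusted p = 0.00437), also short of 1.5-fold. *lgg-1*, the Atg8 homologue, had 12434, 11242 and 12124 against 9349, 9843 and 10078 (0.29 ± 0.14, adjusted p = 0.151). Of 22 heat shock chaperones *hsp-110* was called, lower by 0.61 on the log2 scale. Its call was lost without *eat-2;nhr-62* replicate 1 and when scaled by total counts. Among lysosomal and gut proteases the cathepsin B-like *cpr-4* had 15098, 18916 and 18385 in *eat-2;nhr-62* libraries, against 6350, 8391 and 6514 in *nhr-62* libraries (1.302 ± 0.16), and the cathepsin D-like *asp-4* was lower (-0.68 ± 0.08).

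Most of the genes with the smallest p-values had little spread within a genotype, which a choice by p-value favours, *clec-17* being an exception. *fln-2*, a filamin that crosslinks actin, had normalised read counts of 8582, 8626 and 7619 in *eat-2;nhr-62* libraries, against 2762, 2802 and 2597 in *nhr-62* libraries (log2 fold-change 1.61 ± 0.12, edgeR adjusted p = 3.77e-05). *C14C6.5* and *C14C6.2*, both on chromosome V, had log2 fold-changes of 1.96 ± 0.14 and 1.68 ± 0.13. *snt-2*, a synaptotagmin gene that overlaps *ppm-1.G*, had 524, 532 and 542 against 1028, 1066 and 1030 (-0.97 ± 0.08, adjusted p = 5.41e-05). *idpp-15* had 1526, 1400 and 1333 against 628, 598 and 612 (1.21 ± 0.10).

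The effect of *eat-2* in the *nhr-62* background was next set beside its effect in the wild-type background, in libraries the comparisons do not share. In *eat-2* against N2, 3674 genes (23.9%) were called higher and 554 (3.61%) lower. Of the 1668 genes called in *eat-2;nhr-62* against *nhr-62*, 1409 were called in the same direction there, 1271 higher and 138 lower, and 4 in the opposite direction. The shared genes were 84.5% of the calls in the *nhr-62* background and 33.3% of those in the wild-type background. Among genes called higher 87.5% were shared, against 23.9% of all genes, and among genes called lower 63.9% were shared, against 3.61% of all genes.

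Directions held well beyond the called genes. Of the genes called higher in *eat-2* against N2, 96.8% had a positive log2 fold-change in *eat-2;nhr-62* against *nhr-62*, against 53.2% of all genes. Of those called lower, 93.9% were negative, against 46.8% of all genes. Sizes were smaller: over the genes called higher in *eat-2* against N2 the median was 0.68 in the *nhr-62* background and 1.15 in the wild-type background, and over those called lower it was -0.50 and -0.96. These genes were chosen in the wild-type comparison, which raises their size there. Over the genes called higher in *eat-2;nhr-62* against *nhr-62*, the medians were 1.02 in the *nhr-62* and 1.29 in the wild-type background, and over the genes called lower they were -0.97 and -0.83. Across all genes the log2 fold-changes had a Pearson r of 0.803 and a Spearman rho of 0.776, and r was 0.833 over the 9971 genes with a mean count over 100. Genes are not independent replicates, and the values describe these libraries.

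**Figure D4:**
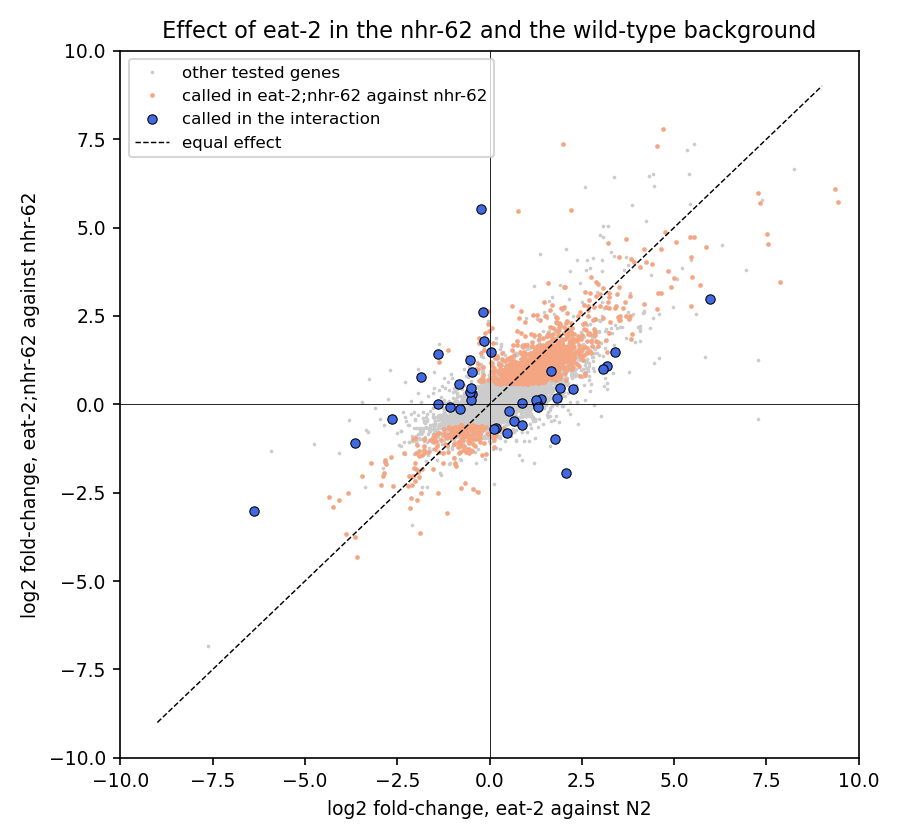
Log2 fold-change of each tested gene in *eat-2;nhr-62* against *nhr-62* (y axis) and in *eat-2* against N2 (x axis), with genes called in *eat-2;nhr-62* against *nhr-62* in orange, the 40 genes called in the interaction in blue, and a dashed line at equal effects. The x and y values were correlated over all genes (r = 0.803), which does not measure closeness to the dashed line. Blue points lie off that line.

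The difference itself was tested as an interaction, the log2 fold-change in the *nhr-62* background minus that in the wild-type background. It called 40 genes (0.261% of those tested), 19 with a higher and 21 with a lower value in the *nhr-62* background. At an unadjusted p under 0.05 there were 2193 genes, and DESeq2 called 198, so the number depends on the test. It was 18 without *eat-2;nhr-62* replicate 2, 22, 14 and 14 without *nhr-62* replicates 1, 2 and 3, 21 without *eat-2* replicate 2 or 3, and 21 and 13 without N2 replicates 2 and 3. The size of the change was smaller in the *nhr-62* background for 30 of the 40 genes and larger for 10. Of the 40, 16 were called in *eat-2* against N2 alone, 9 in *eat-2;nhr-62* against *nhr-62* alone, 10 in both and 5 in neither. Of the 10 called in both, 7 moved in the same direction, each by less in the *nhr-62* background, and 3 in opposite directions.

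Genes that moved less in the *nhr-62* background included 3 that the study itself had picked for qPCR from these samples, which is not independent evidence of their direction. *acdh-2* averaged 331 ± 175 in *eat-2;nhr-62* and 2755 ± 24.6 in *nhr-62* libraries, beside 33.99 in *eat-2* and 2867 in N2 libraries (SD, n = 3 each for the first pair), so it fell 8-fold in the *nhr-62* and over 80-fold in the wild-type background (log2 fold-changes -3.02 and -6.37, interaction edgeR adjusted p = 0.0205). *C42D4.3* had normalised read counts of 175, 101 and 138 in *eat-2;nhr-62* libraries, against 19.5, 10.8 and 20.2 in *nhr-62* libraries, and averaged 793 in *eat-2* and 12.4 in N2 libraries (2.98 and 5.98, interaction adjusted p = 0.0131). *F57A8.6* had 76.6, 67.1 and 79.8 against 36.3, 38.3 and 37.3, and averaged 364 in *eat-2* and 43.0 in N2 (0.995 and 3.08, interaction adjusted p = 0.0131). In all 3 the change in the *nhr-62* background was in the same direction and called. The interaction call of *acdh-2* was lost without any one of 7 libraries, that of *F57A8.6* without any one of 4 and that of *C42D4.3* without any one of 3.

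For some genes the change seen in *eat-2* against N2 was not detected between *eat-2;nhr-62* and *nhr-62*; these were chosen after their values were seen. *unc-82*, a kinase that organises muscle filaments and whose gene overlaps *valv-1*, averaged 999 ± 70 in *eat-2;nhr-62* and 974 ± 77 in *nhr-62* libraries, beside 2269 in *eat-2* and 929 in N2 libraries (log2 fold-changes 0.04 and 1.29, interaction edgeR adjusted p = 0.00353). *acp-2*, an acid phosphatase, averaged 189 ± 5.8 in *eat-2;nhr-62* and 167 ± 12.7 in *nhr-62*, beside 266 in *eat-2* and 74.5 in N2, so its *nhr-62* level was already above N2. *asp-12*, an aspartyl protease, averaged 379 ± 101 in *eat-2;nhr-62* and 504 ± 28 in *nhr-62*, beside 186 in *eat-2* and 1149 in N2 (-0.40 and -2.63). *ech-7*, an enoyl-CoA hydratase, had log2 fold-changes of 0.02 and -1.40, and its interaction call was lost without any one of 9 libraries.

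Other genes moved in the *nhr-62* background and not, or the other way, in the wild-type background. *tiar-2*, an RNA-binding protein of the TIA-1 family, had normalised read counts of 810, 655 and 700 in *eat-2;nhr-62* libraries, against 243, 251 and 283 in *nhr-62* libraries, while *eat-2* and N2 libraries averaged 260 and 251 (log2 fold-changes 1.48 and 0.05, interaction edgeR adjusted p = 0.00509). The double mutant alone stood out. *asp-8*, an aspartyl protease, had 760, 999 and 956 in *eat-2;nhr-62* libraries, against 228, 286 and 272 in *nhr-62* libraries, with 370 and 410 on average in *eat-2* and N2 (1.79 and -0.15, interaction adjusted p = 0.00285). *T25B2.1*, chosen after its values were seen, had 116 reads in all in *eat-2;nhr-62* and 3 in *nhr-62*, a ratio per read sequenced of 55.9 (95% exact interval 18.7 to 275, for counting error only), and lay between 0.944 and 3.16 normalised reads in every *eat-2* and N2 library. Its interaction call was lost without any one of 11 libraries and with DESeq2. *F42A9.6*, on chromosome IV, had 671, 593 and 553 in *eat-2;nhr-62* libraries, against 344, 317 and 299 in *nhr-62* libraries, and was lower in *eat-2* than in N2 (0.92 and -0.48).

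In further genes the *nhr-62* libraries held the lowest values. *cyp-29A3*, a cytochrome P450, had normalised read counts of 113, 109 and 126.03 in *eat-2;nhr-62* libraries, against 14.7, 17.7 and 24.9 in *nhr-62* libraries, while *eat-2* and N2 averaged 121 and 137 (log2 fold-changes 2.60 and -0.17, interaction edgeR adjusted p = 0.00285). The other 3 genotypes were at like levels. Neighbouring F-box genes on chromosome V shared a pattern of this kind. *fbxa-192* had 46.9, 38.6 and 44.3 in *eat-2;nhr-62* libraries, against 25.8, 25.5 and 24.1 in *nhr-62* libraries, and averaged 54.8 in *eat-2* and 200 in N2 (0.77 and -1.86, interaction adjusted p = 0.0012, the smallest of all genes). *fbxa-193* had 59.4, 54.3 and 61.6 against 17.4, 23.6 and 24.9, and averaged 104.01 in *eat-2* and 274 in N2 (1.41 and -1.39). *fbxa-191*, chosen after its values were seen, had 39.1, 30.3 and 47.1 against 17.4, 17.7 and 13.998, with a log2 fold-change of 1.24 and an interaction call lost without any one of 10 libraries. The 3 genes follow one another with 0 other protein-coding genes or pseudogenes between them, and *fbxa-191* and *fbxa-193* are annotated as pseudogenes, so reads may be split among similar copies.

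Opposite changes with lower values in the *nhr-62* background were found for *dyf-3* and *ugt-33*. *dyf-3*, a gene of sensory cilia, had normalised read counts of 244, 194 and 190 in *eat-2;nhr-62* libraries, against 415, 355 and 337 in *nhr-62* libraries, and averaged 549 in *eat-2* and 393 in N2 (log2 fold-changes -0.83 and 0.48, interaction edgeR adjusted p = 0.00862). *ugt-33* had 6.25, 4.598 and 6.73 against 18.1, 34.4 and 17.1, and averaged 113 in *eat-2* and 26.9 in N2 (-1.95 and 2.06, interaction adjusted p = 0.00862). In both the double mutant was the lowest and *eat-2* the highest of the 4 genotypes.

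**Figure D5:**
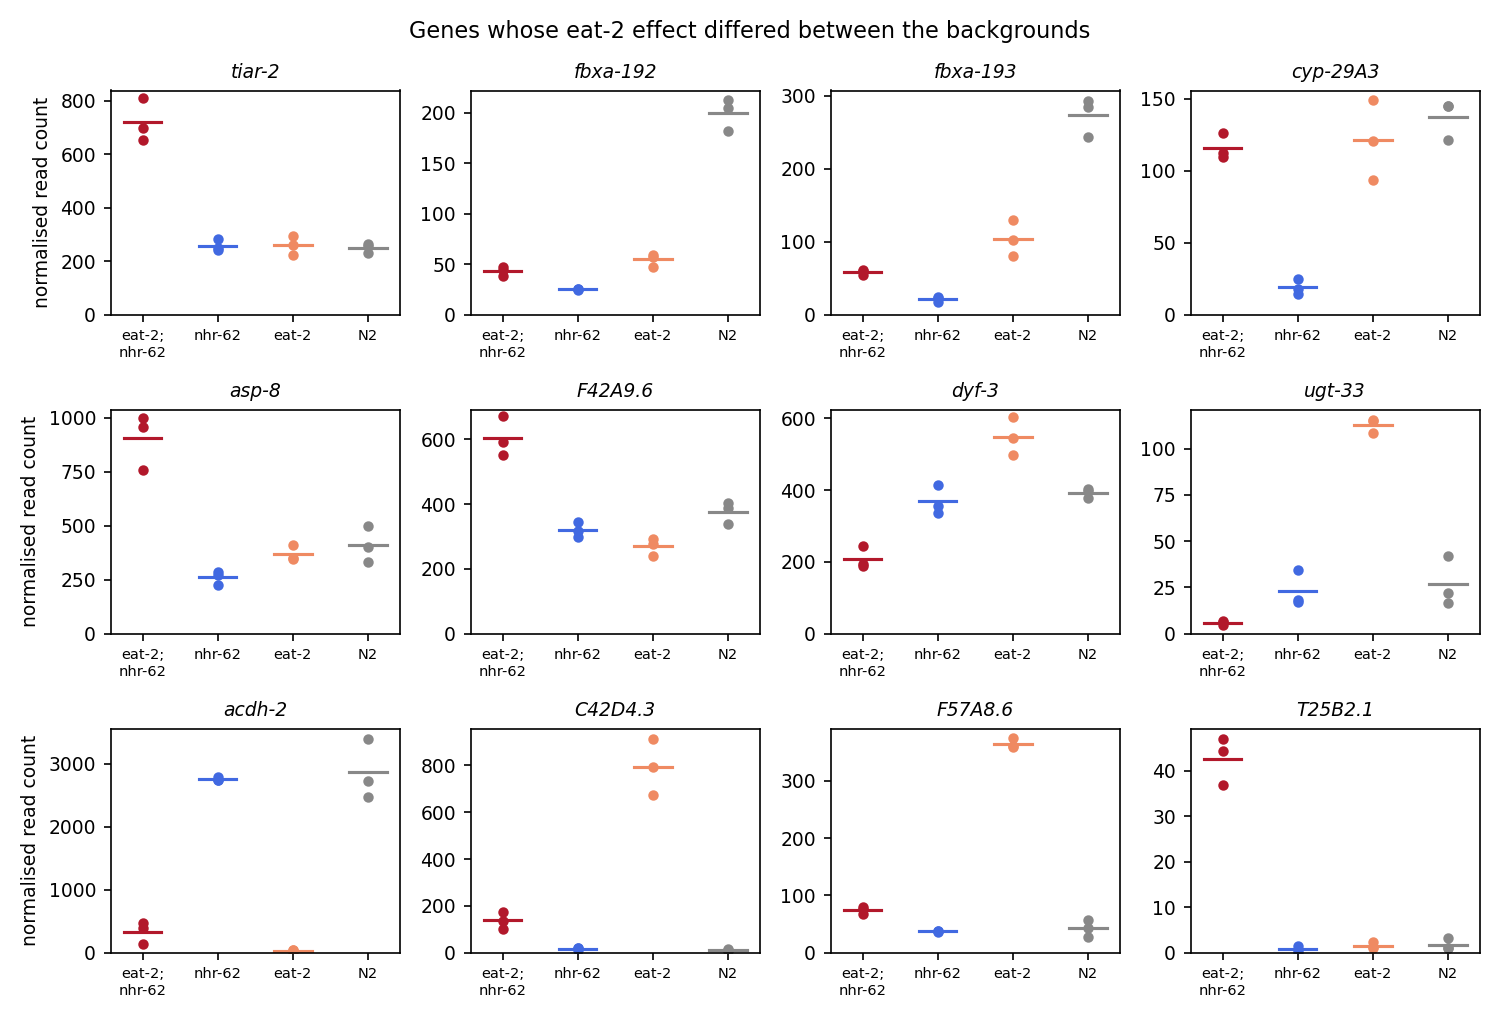
Normalised read counts (y axis, from 0) in each of 12 libraries of 12 genes called in the interaction, by genotype (x axis: *eat-2;nhr-62*, *nhr-62*, *eat-2*, N2), with bars at the mean of 3 libraries. *tiar-2* and *asp-8* stand high in *eat-2;nhr-62* alone, *cyp-29A3* stands low in *nhr-62* alone, and *C42D4.3* and *F57A8.6* are highest in *eat-2*.

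A call in 1 background without a call in the other does not show a difference. Of the 1668 called genes, 184 had an adjusted p over 0.05 in *eat-2* against N2, 132 higher and 52 lower, and 6 of the 184 were called in the interaction. The largest increases among them with high counts were *ZK218.5*, *clec-169*, *clec-4*, *asp-8*, *clec-66* and *F43C9.1*, of which *asp-8* was called in the interaction. *clec-4* had normalised read counts of 1038, 757 and 242 in *eat-2;nhr-62* libraries, against 163, 136 and 77.0 in *nhr-62* libraries (log2 fold-change 2.43 ± 0.45, edgeR adjusted p = 0.00494), and its log2 fold-change in *eat-2* against N2 was 0.79. The largest decreases were *col-149*, *kin-15*, *F23F12.12*, *K10C2.8*, *jmjc-1* and *mpst-7*. *kin-15*, a receptor tyrosine kinase-like gene, had 89.1, 109 and 119.3 against 244, 244 and 241 (-1.19 ± 0.16, adjusted p = 0.00089), and *jmjc-1*, a predicted histone demethylase whose gene overlaps *cah-6*, had 199, 176 and 252 against 381, 381 and 407 (-0.90 ± 0.14). Both separated the genotypes, and their interaction adjusted p was 0.172 and 0.0616. The calls of *clec-66*, *F23F12.12* and *mpst-7* were lost without any one of 2, 3 and 4 libraries.

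Genes for which qPCR assays had been run were looked at as a list. Between *eat-2;nhr-62* and *nhr-62*, 6 of its 22 genes were called higher (27.3%, against 9.46% of all genes) and 5 lower (22.7%, against 1.41%). Between *eat-2* and N2, where 23.9% of all genes were called higher and 3.61% lower, there were 11 higher and 8 lower. Many had been picked from these samples, so the counts are no independent evidence of direction. Apart from the genes above, *col-91* had normalised read counts of 62.5, 180 and 58.7 in *eat-2;nhr-62* libraries, against 5.58, 5.89 and 2.33 in *nhr-62* libraries (log2 fold-change 4.45 ± 0.55, edgeR adjusted p = 0.000542), and *grl-21*, a hedgehog-related gene, had 231, 42.3 and 59.6 against 10.5, 17.7 and 1.56 (3.47 ± 0.75, adjusted p = 0.0102). The call of *grl-21* was lost with the sperm marker level as a covariate. Genes that changed in *eat-2* against N2 without a call here included *gst-21*, with 31.3, 20.2 and 38.5 in *eat-2;nhr-62* libraries, against 24.4, 30.5 and 29.6 in *nhr-62* libraries (0.09 ± 0.29, adjusted p = 0.849), and *lbp-8*, a lysosomal lipid-binding protein, with 29.7, 71.7 and 46.2 against 62.8, 52.1 and 59.1 (-0.21 ± 0.43, adjusted p = 0.75). Their libraries overlapped, and the difference between backgrounds did not pass the test for either gene (interaction adjusted p = 0.107 and 0.259). The qPCR reference genes *ama-1* and *cdc-42* had log2 fold-changes of -0.08 and -0.11.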

How the data were processed

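RNA-seq read counts of 12 libraries, 3 per genotype, were used as deposited. The authors made these counts per gene by clipping adapters, aligning single-end reads to WBcel215.67 with TopHat 1.3, keeping 1 alignment per read, and counting with htseq-count. No strand setting is stated, so overlapping genes cannot be told apart. Of 24428 genes with a count, 98.5% matched the WBcel235 annotation, which gave names and chromosomes. Depth per library was 18260311 to 44753083 reads.

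Differences were tested in R 4.3.3 with edgeR 4.0.16 (filterByExpr over the genotypes, TMM scaling, 1 quasi-likelihood model of genotype means over all 12 libraries), in place of the authors' DESeq and with their thresholds. Normalised counts are counts per effective library size times its mean. The standard error is the log2 fold-change over the square root of F. P-values were adjusted over 15344 tested genes. The script was tested on simulated data.

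Genes named are the 12 largest increases and 12 largest decreases among called genes with a mean normalised count over 100 and no overlap of libraries, the 10 smallest p-values, the 8 called genes with the smallest interaction p-values, the 6 largest changes each way with an adjusted p over 0.05 in *eat-2* against N2, the 3 smallest p-values of each of 44 lists, and fixed genes (*eat-2*, *nhr-62*, the vitellogenins and the genes of the study's qPCR). Members and lists were chosen with earlier results of these data known. Genes that share exon sequence with another gene holding at least 5% of their reads are marked as overlapping. Alternatives were other scalings, DESeq2 1.42.0, filters, thresholds, a replicate block, a sperm covariate and leaving out each library.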

Additional observations from a re-analysis of the deposited data

Results flagged for a closer look

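Each of these results was marked because the effect of *eat-2* differed between the *nhr-62* and the wild-type background in edgeR's test of the difference. In all 40 genes were called in that test. Values are log2 fold-changes in *eat-2;nhr-62* against *nhr-62* minus those in *eat-2* against N2. Positive differences were found for *T25B2.1* (5.75, a fitted value that rests on 3 reads in *nhr-62* libraries and is no bound), *acdh-2* (3.35), *fbxa-193* (2.80), *cyp-29A3* (2.77), *fbxa-192* (2.64), *asp-12* (2.23), *asp-8* (1.94), *fbxa-191* (1.77), *tiar-2* (1.43), *ech-7* (1.42) and *F42A9.6* (1.39). For *acdh-2*, *asp-12* and *ech-7* the sign reflects a smaller decrease, or none detected, in the *nhr-62* background. Negative differences were found for *ugt-33* (-4.02), *C42D4.3* (-3), *F57A8.6* (-2.08), *acp-2* (-1.66), *dyf-3* (-1.31) and *unc-82* (-1.25).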

How the results depend on the processing

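Counts of calls were recomputed under 21 alternatives (20 for the interaction), named genes under 20 and named interaction genes under 19, of which 12 left out a library. In *eat-2;nhr-62* against *nhr-62*, the 1668 calls became 234 in a test against a 1.5-fold change, 899 with the sperm covariate and 2977 by adjusted p alone (64.7% of them higher, against 87.1%), and 893 to 2030 with a library left out. In *eat-2* against N2, the 4228 calls became 1850, 1419 and 8038 under the same settings and 3664 to 4447 with a library left out. The 40 interaction calls became 198 with DESeq2 and 10 in a test against a 1.5-fold change, and 13 to 46 with a library left out. Genes called in the same direction in both backgrounds became 183 in a test against a 1.5-fold change, 546 with the sperm covariate, 2520 by adjusted p alone, and 718 to 1675 with a library left out.

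Scaling by total counts moved the median of all genes to 0.12 on the log2 scale and gave 2125 calls, 92.4% higher, among them 19 *flp* genes in place of 9. Of 124 named called genes, 64 were called under every alternative and 101 whichever library was left out; of 17 named interaction genes these numbers were 8 and 11. No sign of a called value was reversed. Replicate numbers were not taken to pair the libraries: same-numbered *eat-2;nhr-62* and *nhr-62* libraries had correlations of their deviations of 0.0587 to 0.289, though each library correlated best with its own number. With the replicate block, 1994 genes were called (1632 shared with the 1668) and 55 in the interaction. The depth limits calls for rare transcripts such as *eat-2* itself.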

Other observations

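Further lists are given here beside the shares over all genes in *eat-2;nhr-62* against *nhr-62*, 9.46% higher and 1.41% lower. F-box A proteins, predicted substrate adaptors of ubiquitin ligases, gave 25 higher (17.2%) and none lower of 145, with a median log2 fold-change of 0.37. The 25 became 11 and 14 when replicate 1 or 3 of the double mutant was left out, and 11 and 14 without *nhr-62* replicates 1 and 2. *fbxa-21* had normalised read counts of 270, 144 and 186 in *eat-2;nhr-62* libraries, against 18.1, 40.3 and 52.9 in *nhr-62* libraries (log2 fold-change 2.43 ± 0.34, edgeR adjusted p = 0.000999). Transthyretin-like genes gave 6 higher (10.9%) and 1 lower (1.82%) of 55, led by *ttr-21*, with 463, 453 and 470 against 264, 301 and 270 (0.73 ± 0.10). Both genes separated the genotypes. Hedgehog-related genes gave 3 higher (5.66%) and 3 lower (5.66%) of 53, and cuticlins and molting proteases 4 higher (6.67%) and 1 lower (1.67%) of 60. The higher shares of these last 3 lists are near or below that of all genes.

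Among enzymes and transporters, glutathione S-transferases gave 3 higher (6.98%) and 2 lower (4.65%) of 43, and short-chain dehydrogenases 2 higher (6.67%) and 3 lower (10%) of 30. ABCG transporters gave 2 higher (22.2%) and none lower of 9. The call of *wht-5* was lost without any one of 5 libraries and that of *wht-4* without any one of 6. Both were also lost with the sperm covariate. The short-chain dehydrogenase *dhs-25* had 1504, 2066 and 1873 in *eat-2;nhr-62* libraries, against 5634, 4297 and 4343 in *nhr-62* libraries (-1.39 ± 0.20, adjusted p = 0.00115). The superoxide dismutase *sod-3*, a target of DAF-16 that overlaps *lido-1*, had 4.69, 12.9 and 31.7 against 62.8, 53.0 and 70.8 (-1.84 ± 0.52, adjusted p = 0.0297), and its call was lost without any one of 5 libraries. Chromosome V held 26.7% of the called genes and 19.6% of those tested.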
